A study of Bos taurus with 48 samples.

Results

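The platelet activation genes ITGA2, PLA2G4A, PDE5A and MRVI1 were followed in the blood leukocytes of calves that were weaned, or not weaned, when they were moved indoors. They were chosen by identifier, as ENSBTAG00000019289, ENSBTAG00000013298, ENSBTAG00000024888 and ENSBTAG00000007129 in that order, and are 4 of the 25669 genes in the table of counts, of which 18206 had at least 1 count. The samples came from 12 intact male beef calves of a continental breed that had grazed with their dams, had all been vaccinated against respiratory viruses and were housed on d 0. Dams stayed in the pen with the 6 control calves. For the other 6, the weaned calves, weaning was abrupt, and their penmates came from the same treatment. Blood was drawn on d 0 ahead of the move and then on d 1, 2 and 7, which gave 48 libraries in 8 groups of 6. All calves were housed, and in weaned calves separation and new penmates came together, so that these cannot be told apart. The RNA was that of all white cells left after lysis of red cells, a preparation that can carry platelets along.

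Platelets bind exposed collagen at a wound, change shape, release granules and recruit more platelets through thromboxane, while nitric oxide from the vessel wall holds them back through cyclic GMP. ITGA2 is the alpha subunit of a collagen-binding integrin. PLA2G4A is the cytosolic phospholipase that frees arachidonic acid, the source of thromboxane, prostaglandins and leukotrienes, and other leukocytes use it too. PDE5A breaks down cyclic GMP, and MRVI1, also named IRAG1, is a target of the cyclic GMP dependent kinase that restrains calcium release from internal stores. The first pair acts in activation and the other pair in the cyclic GMP pathway.

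The measure was the number of reads on each gene, deposited without normalisation. Levels are given as CPM, the counts scaled to a common library total after TMM scaling over the 48 libraries. Library totals ran from 1662995 to 4256011 counts, and their median was 3600161. A floor of 3 counts in a library was worth 0.686 to 2.08 CPM, and floors and intervals cover counting error only. PLA2G4A had 1308 counts over the 48 libraries and was present in all of them. ITGA2 had 158 counts and reached 3 in 25 libraries, MRVI1 had 104 and reached 3 in 15, and PDE5A had 50 and reached 3 in 6. Single libraries of ITGA2, PDE5A and MRVI1 were thus often under the floor, and these genes are read mainly as sums over 6 libraries.

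On d 7 a pair of libraries resembled each other's calf more than their own over a set of genes chosen to tell calves apart. Over 200 genes that differed most between calves on d 0, 1 and 2, the library labelled weaned calf 1758 had a correlation across genes of 0.271 with the earlier libraries of that calf and 0.692 with those of weaned calf 1770. The library labelled 1770 had 0.267 with its own calf and 0.461 with calf 1758. Genes are not independent replicates, so these values are descriptions. The other 10 libraries of d 7 were closest to their own calf. Over all genes with a mean of at least 5 counts the picture was less clear. There the library labelled 1758 was closest to calf 1773 (mean r 0.171, own calf 0.132), that labelled 1770 to its own calf, and control libraries 1755 and 1803 were not closest to their own calves. Whether labels were exchanged was not settled by these values. Both calves were weaned, so that comparisons between treatments on a single day hold the same libraries either way. Changes within calves on d 7, and their differences between treatments, are also given with these libraries exchanged or with both calves left out. Calf numbers are those of the labels throughout.

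None of the 4 genes passed the test in any of the 10 comparisons. With edgeR's quasi-likelihood test a call needed a Benjamini-Hochberg adjusted p below 0.05 over all genes tested, together with a change of 2-fold or more. Of 40 pairs of a gene and a comparison, 36 had the 10 counts needed, 0 were called and 13 had an unadjusted p under 0.05, while DESeq2 also called 0. The 4 pairs with fewer counts were all of PDE5A. The smallest adjusted p from edgeR was 0.0752, for PLA2G4A in control calves on d 7. Exact permutation tests, two-sided and not adjusted, gave p under 0.05 in 4 of the 40 pairs, and in 1 where calves with equal counts on both days were taken as unchanged.

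**Figure D1:**
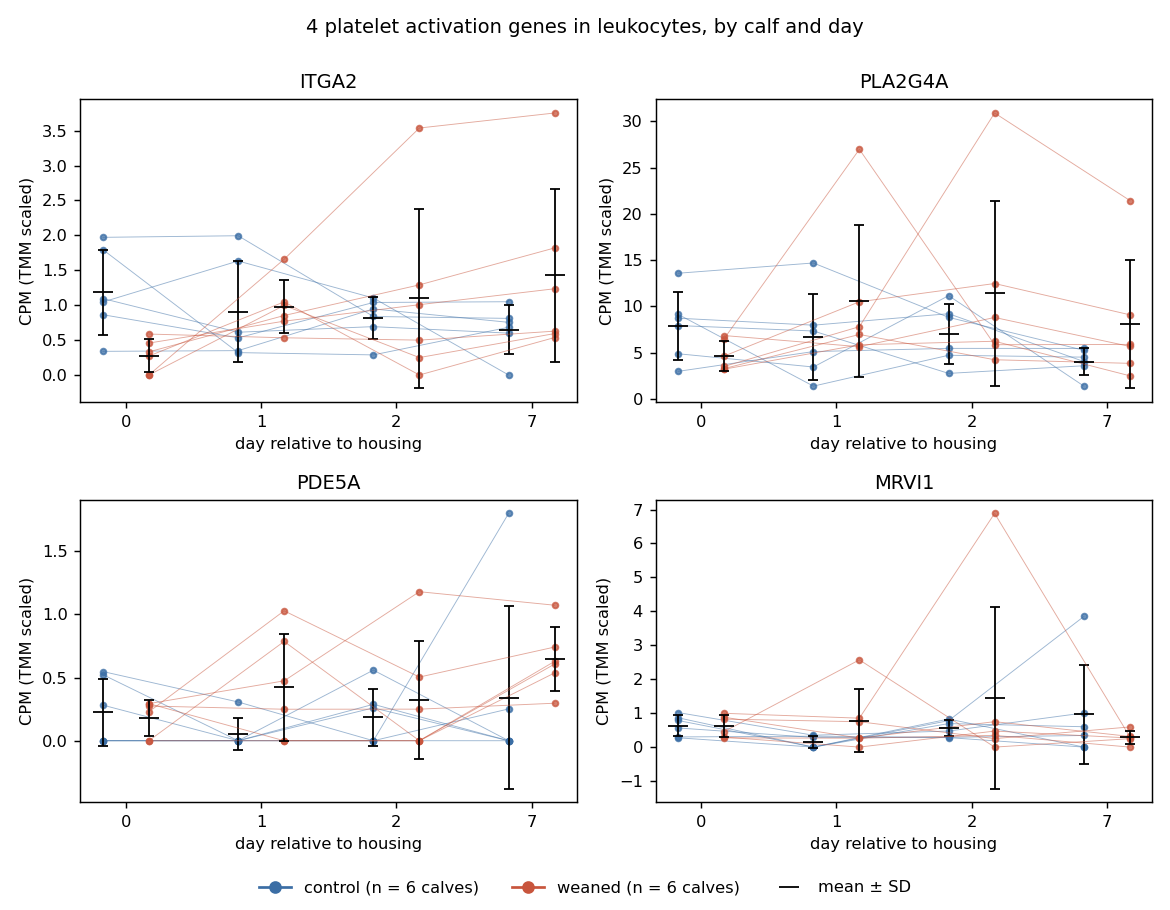
Levels of the 4 genes (CPM after TMM scaling, linear axis, days evenly spaced) in control calves (blue) and weaned calves (red). Points are libraries, thin lines join libraries labelled as 1 calf, and black marks are mean ± SD of 6 calves. Libraries labelled weaned calf 1758 reached 3.54 and 3.75 CPM of ITGA2 on d 2 and d 7.

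ITGA2 was lowest in weaned calves before they were weaned. On d 0 their libraries held 0 to 2 counts (median 1, 6 in all), and control libraries held 1 to 7 (median 4, 25 in all), so that the ranges overlapped. The means were 0.275 ± 0.239 CPM in weaned and 1.19 ± 0.607 CPM in control calves (SD, n = 6 each). The log2 difference was -1.97 (SE 0.61), with an adjusted p of 0.624 in edgeR and an exact permutation p of 0.00649, where 0.00216 is the smallest possible. On that day 0.0% of 13926 genes were called and 6.23% had an unadjusted p under 0.05. This difference was present before treatment began and enters every later change of the weaned calves. Fewer cells that make a transcript and less of it in each cell cannot be told apart in such samples.

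In weaned calves ITGA2 values were higher on each later day. Their libraries held 2 to 7 counts on d 1 (median 3.5, 23 in all), 0 to 15 on d 2 (median 2.5, 25 in all) and 2 to 14 on d 7 (median 3.5, 31 in all). The means were 0.976 ± 0.381, 1.10 ± 1.29 and 1.43 ± 1.24 CPM (SD, n = 6 each), against 0.907 ± 0.720, 0.818 ± 0.298 and 0.650 ± 0.353 CPM (SD, n = 6 each) in control calves. The ranges of the treatments overlapped on each of these days. Log2 changes from d 0 were 1.69 (SE 0.57), 1.89 (SE 0.83) and 2.23 (SE 0.69), with edgeR adjusted p of 0.423, 0.944 and 0.920. ITGA2 was higher than on d 0 in 5, 4 and 6 of 6 calves, and the exact permutation p over the signs of changes was 0.0625, 0.188 and 0.0312. On d 7 calf 1809 held 2 counts as on d 0 and was higher by library scaling alone, and with equal counts taken as no change the exact permutation p was 0.0625.

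The later ITGA2 values rested in part on libraries labelled as 1 calf. Those labelled 1758 held 15 of 25 counts on d 2 and 14 of 31 on d 7. If the d 7 labels were exchanged, these counts came from different calves. Without the libraries labelled 1758 the log2 changes of d 1, 2 and 7 were 1.24, 0.76 and 1.44. Without both calves 1758 and 1770 the d 1 change was 0.89 and the d 7 change 1.27. With calf as a replicate block the changes of d 1, 2 and 7 were 1.67, 1.63 and 2.08, with edgeR adjusted p of 0.166, 0.960 and 0.923. With the d 7 libraries of 1758 and 1770 exchanged as well the d 7 change was 2.10, where the exact permutation p was again 0.0312. Of all genes, the share called against d 0 was 0.0%, 0.0% and 0.0% for d 1, 2 and 7, and 10.4%, 2.11% and 2.65% had an unadjusted p under 0.05.

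In control calves ITGA2 had no such course. The libraries of d 1, 2 and 7 summed to 19, 17 and 12 counts, with log2 changes from d 0 of -0.36 (SE 0.53), -0.49 (SE 0.46) and -0.79 (SE 0.55). The edgeR adjusted p was 0.999, 0.646 and 0.280, and ITGA2 was lower in 3, 3 and 4 of 6 calves. Without calf 1802 the log2 changes were -0.044, -0.17 and -0.67. For d 1, 2 and 7 the log2 differences of ITGA2 between treatments were 0.065 (SE 0.50), 0.41 (SE 0.66) and 1.08 (SE 0.62), with edgeR adjusted p of 0.983, 0.950 and 0.259. The differences of d 1 and d 2 changed sign without calf 1758, to -0.15 and -0.48, and that of d 7 became 0.52. Of all genes 0.0%, 0.0% and 0.0% were called between treatments on d 1, 2 and 7, and 3.01%, 3.37% and 25.5% had an unadjusted p under 0.05, so that the unadjusted p of 0.0976 of ITGA2 on d 7 does not set it apart.

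PLA2G4A had the most counts of the 4 genes and was also lower in weaned than in control calves on d 0. Their libraries lay between 3.23 and 6.86 CPM with a median of 4.08, and those of control calves between 2.99 and 13.6 CPM with a median of 8.34. The means were 4.68 ± 1.64 and 7.88 ± 3.68 CPM (SD, n = 6 each). The log2 difference was -0.72 (SE 0.33), with an edgeR adjusted p of 0.624 and an exact permutation p of 0.0974. With flowcell as a term it was -0.40, and with 1 calf left out it ran from -0.89 to -0.51, so that its size was not firm. The ranges overlapped, as they did in the later comparisons of this gene.

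After weaning the PLA2G4A libraries of weaned calves spread widely. They lay between 5.66 and 27.0 CPM on d 1 (median 7.40), 4.25 and 30.9 on d 2 (median 7.53) and 2.51 and 21.4 on d 7 (median 5.79). Calf 1773 held 103 of 245 counts on d 1, and libraries labelled calf 1758 held 131 of 254 on d 2 and 80 of 176 on d 7. These libraries set the means of 10.6 ± 8.20, 11.4 ± 9.96 and 8.08 ± 6.91 CPM (SD, n = 6 each) far above the medians. The log2 changes from d 0 were 1.14 (SE 0.39), 1.27 (SE 0.45) and 0.77 (SE 0.45), higher in 5, 5 and 3 of 6 calves. The edgeR adjusted p was 0.423, 0.944 and 0.920, and the exact permutation p 0.0625, 0.0625 and 0.438. Without calf 1773 the d 1 change was 0.73, and without calf 1758 those of d 2 and d 7 were 0.57 and 0.13. With calf as a replicate block the changes of d 1, 2 and 7 were 1.01, 1.00 and 0.52, with edgeR adjusted p of 0.150, 0.960 and 0.923. With the d 7 libraries of 1758 and 1770 exchanged as well the d 7 change was 0.52, and without both calves it was 0.11. The weaned libraries of d 1 had the most genes detected of the 8 groups, 14384.5 ± 208 against 14117.5 ± 219 on d 0. They also had the smallest share of counts in the 100 highest genes, 8.54 ± 0.240% against 8.88 ± 0.387% (SD, n = 6 each).

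In control calves PLA2G4A was 6.67 ± 4.63 CPM on d 1, 7.03 ± 3.19 on d 2 and 4.05 ± 1.48 on d 7 (SD, n = 6 each). The d 7 libraries, at 1.40 to 5.47 CPM with a median of 4.29, formed the lowest group mean of this gene. These libraries also had the fewest genes detected of the 8 groups, 13792 ± 347 against 14145 ± 211 on d 0, and the largest share of counts in the 100 highest genes, 9.48 ± 0.803% against 8.85 ± 0.239% (SD, n = 6 each). Log2 changes from d 0 were -0.23 (SE 0.45), -0.11 (SE 0.35) and -0.91 (SE 0.36), lower in 4, 3 and 5 of 6 calves, with edgeR adjusted p of 0.999, 0.899 and 0.0752. The exact permutation p was 0.594, 0.688 and 0.0625. The share of all genes called was 0.0% on d 1 and 0.0% on d 2, where 0.768% and 5.09% had an unadjusted p under 0.05. By d 7, 3.73% of 13829 genes were called and 40.1% had an unadjusted p under 0.05, so that a low p was common there. With calf as a replicate block the d 7 change of PLA2G4A was -0.88 with an edgeR adjusted p of 0.0458, which is under 2-fold. It was called without calf 1802, at -1.19 with an edgeR adjusted p of 0.0396, and over all its alternatives the adjusted p ran from 0.0396 to 1.00. Without the shallow d 7 library of calf 1759 the change was -0.89, and the number of all genes called went from 516 to 0.

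Between treatments the log2 difference of PLA2G4A was 0.64 (SE 0.49) on d 1, 0.66 (SE 0.45) on d 2 and 0.98 (SE 0.46) on d 7. The edgeR adjusted p was 0.959, 0.950 and 0.193, and the exact permutation p 0.240, 0.374 and 0.182. Without calf 1773 the d 1 difference was 0.12, and without calf 1758 those of d 2 and d 7 were 0.039 and 0.41, the lowest of the values with 1 calf left out. The highest such values were 1.03, 0.86 and 1.16, the first without control calf 1755, so that single calves moved each difference widely. With flowcell as a term the differences were 1.09, 0.72 and 1.09, with edgeR adjusted p of 0.232, 0.450 and 0.0658.

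Levels of PLA2G4A followed the main axis along which the libraries differed. The first principal component of log2(CPM + 1) over 11883 genes, the members left out, held 45.4% of the variance. Over the 48 libraries, which share calves, Pearson's r of PLA2G4A with its score was 0.844, while it was 0.538 for ITGA2, 0.331 for PDE5A and -0.147 for MRVI1. PLA2G4A is not particular in this, since 25.0% of 11884 genes with a mean of at least 5 counts had an r of at least that size. Its r with the number of genes detected was 0.601, and with the share of counts in the 100 highest genes -0.486. The part of these measures in its levels was not tested.

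Within d 0, 1, 2 and 7, over 12 calves each, r of PLA2G4A with the score was 0.856, 0.894, 0.839 and 0.848, with permutation p of 0.000440, 0.000190, 0.00252 and 0.00110, adjusted over 16 relations to 0.00352, 0.00304, 0.0101 and 0.00587. Spearman's rho was 0.769, 0.783, 0.497 and 0.769, with permutation p of 0.00501, 0.00377, 0.105 and 0.00471, adjusted to 0.0166, 0.0166, 0.194 and 0.0166. Without the 2 calves farthest from the median score r was 0.709, 0.765, 0.209 and 0.577, so that the relation of d 2 rests on those calves. For ITGA2 r with the score was 0.214, 0.504, 0.759 and 0.789, with permutation p of 0.502, 0.0954, 0.0175 and 0.00494, adjusted to 0.536, 0.117, 0.0350 and 0.0132. Its rho was 0.172, 0.601, 0.559 and 0.490, with permutation p of 0.591, 0.0432, 0.0613 and 0.109, adjusted to 0.724, 0.115, 0.140 and 0.194, and its r without 2 calves was 0.255, 0.436, 0.480 and 0.512. The 12 calves of a day were of both treatments, and values were permuted across all of them. These relations therefore include any difference between treatments. Neither gene's relation was tested within treatments, nor within flowcells, which held too few libraries of a day.

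The score itself differed between groups. Its mean was -0.148 ± 0.0733 in control calves on d 7, the lowest of the 8 groups, and 0.0868 ± 0.130 in weaned calves on d 1, the highest (SD, n = 6 each, no unit). With the score as a covariate, chosen after the data were seen, the log2 changes of PLA2G4A in weaned calves were 0.36, 0.69 and 0.19 on d 1, 2 and 7. Its d 7 change in control calves was -0.037, and between treatments it differed by -0.27, 0.24, 0.044 and -0.19 in order of day. ITGA2 had 1.48, 1.05 and 1.69 in weaned calves under the same fit, and -2.10, -0.068, -0.48 and -0.018 between treatments on d 0, 1, 2 and 7. The part of this axis in the results was not tested, and the score is made from genes that treatment may alter.

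**Figure D2:**
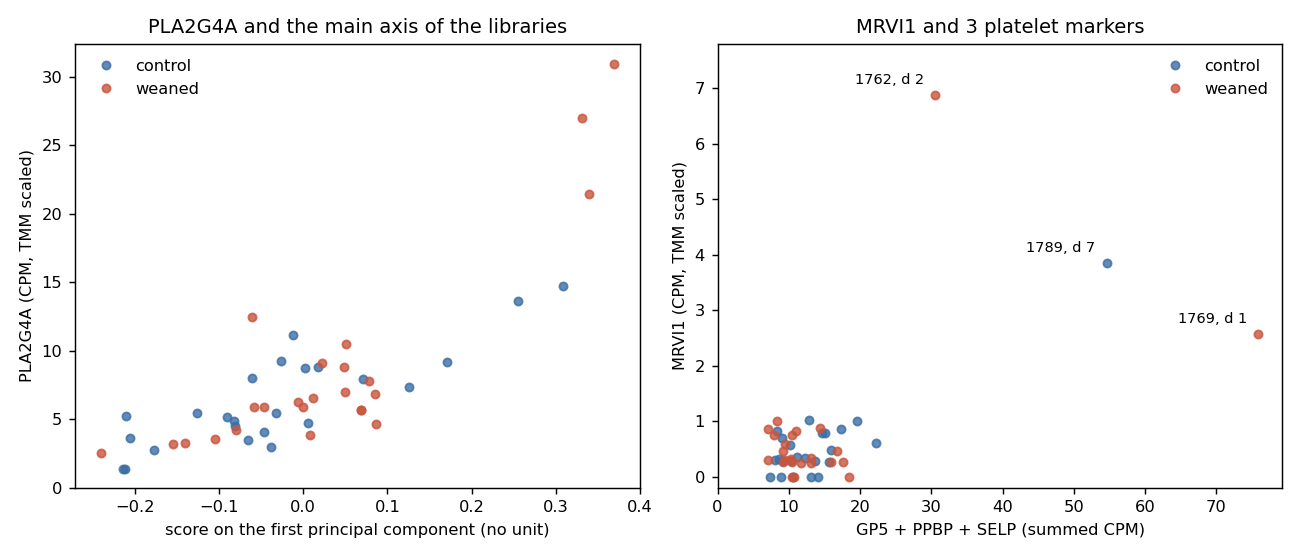
Left, PLA2G4A (CPM after TMM scaling) against the score of the 48 libraries on the first principal component, and right, MRVI1 (CPM) against the summed CPM of GP5, PPBP and SELP, with control libraries blue and weaned libraries red. PLA2G4A is highest at high scores (r = 0.844), and the 3 libraries with the most MRVI1, named by calf and day, have the 3 highest marker sums.

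The 3 named genes most like PLA2G4A over the 48 libraries, among 413 with a symbol and a mean of at least 5 counts, were TANK (r = 0.900), JAK2 (r = 0.889) and TGFBR1 (r = 0.885). TANK binds TRAF proteins, JAK2 is a kinase of cytokine receptors and TGFBR1 is a receptor of transforming growth factor beta. Their own r with the first component was 0.887, 0.895 and 0.917. The other members had too few counts for this comparison.

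ITGA2 and PLA2G4A had an r of 0.567 over the 48 libraries, a pair examined after its values were seen. Within d 0, 1, 2 and 7 r was 0.306, 0.586, 0.803 and 0.641, with permutation p of 0.333, 0.0430, 0.00382 and 0.0369, adjusted to 0.380, 0.0689, 0.0122 and 0.0656. Spearman's rho was 0.270, 0.804, 0.762 and 0.336, with permutation p of 0.394, 0.00270, 0.00518 and 0.284, adjusted to 0.526, 0.0166, 0.0166 and 0.414. Without the 2 calves farthest from the median of ITGA2, r was 0.592, 0.761, 0.646 and 0.368. By rank the pair was most alike on d 1 and d 2, by r on d 2 and d 7, and differences between days were not tested. Both genes share the libraries and the first component, and calves of both treatments were pooled on each day.

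PDE5A was near the limit of detection in every group. It summed to 5, 1, 4 and 4 counts over the control libraries of d 0, 1, 2 and 7, and to 4, 10, 8 and 14 over the weaned libraries. On d 7 the weaned libraries held 1 to 4 counts, at 0.297 to 1.07 CPM with a median of 0.617, and on d 0 0 to 1, at no more than 0.294 CPM. These groups did not overlap, which held for 0.0642% of 14026 genes in that direction, but the values on either side of the gap are 1 count each. The log2 change was 1.63 (SE 0.59), higher in 6 of 6 calves, with an edgeR adjusted p of 0.920 and an exact permutation p of 0.0312. Calf 1770 held 1 count on both days, and with equal counts taken as no change the exact permutation p was 0.0625. With the d 7 libraries of 1758 and 1770 exchanged the exact permutation p was 0.0312, and without both calves the log2 change was 1.94. On d 1 and d 2 the log2 changes were 1.05 (SE 0.82) and 0.84 (SE 0.89), with 4 of 10 counts in calf 1769 and 5 of 8 in calf 1758.

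Between treatments PDE5A had 10 counts against 1 on d 1, a ratio of summed counts of 8.69 with an exact 95% interval of 1.24 to 377. The exact permutation p over calves was 0.106. On d 2 and d 7 the log2 differences were 0.75 (SE 0.94) and 1.34 (SE 0.84), with edgeR adjusted p of 0.950 and 0.298, and 3 of the 4 control counts of d 7 were in calf 1759. Without that calf, left out after its counts were seen, the weaned libraries held 14 counts against 1. The ratio was 10.7 with an exact 95% interval of 1.63 to 452, which covers counting error only. The edgeR adjusted p without that calf was 0.250. In control calves d 1 against d 0 gave a ratio of 0.206 with an interval of 0.00436 to 1.84. No change of PDE5A in control calves was detectable at this depth.

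MRVI1 was even between treatments before housing. Each treatment held 13 counts on d 0, 1 to 3 in a library with a median of 2.5, and the log2 difference was -0.026 (SE 0.49). In control calves it held 3 counts on d 1, a ratio to d 0 of 0.238 with an exact 95% interval of 0.0435 to 0.865, lower in 5 of 6 calves. That change had an exact permutation p of 0.0625 and an edgeR adjusted p of 0.999. Weaned calves had 18 counts on d 1, 5.22 times the control level with an interval of 1.52 to 27.6, but 10 of these were in calf 1769, and the exact permutation p was 0.115. Against their own d 0 the weaned calves had a log2 change of 0.31 (SE 0.69) and an exact permutation p of 1.00, with more counts in 1, fewer in 2 and equal counts in 3 of 6 calves.

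On d 7 the order of the treatments for MRVI1 was the opposite. Weaned calves held 6 counts and control calves 17, of which calf 1789 had 11. The log2 difference was -1.64 (SE 0.89) with an edgeR adjusted p of 0.240, and -0.43 without calf 1789. In weaned calves MRVI1 was lower on d 7 than on d 0 in 6 of 6 calves, with a log2 change of -1.03 (SE 0.58), an edgeR adjusted p of 0.920 and an exact permutation p of 0.0312, which was 0.0938 with the libraries of 1758 and 1770 exchanged. Calf 1758 held 1 count on both days, and with equal counts taken as no change the exact permutation p was 0.0625. Without both calves 1758 and 1770 the log2 change was -1.44. On d 2 weaned calf 1762 held 16 of 23 counts, and without it the log2 change of 0.97 from d 0 became -0.54. Single libraries thus set the level of MRVI1 in a group on 3 occasions.

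Those 3 libraries also had the most platelet marker RNA. The platelet markers used were 3, GP5, PPBP and SELP, and none was at 0 throughout. Their sum was 7.05 CPM in the lowest library, 11.1 in the median and 75.8 in the highest, and SELP, which endothelium also makes, was the most abundant at a mean of 11.2 CPM. Weaned calf 1769 on d 1 had the highest sum, 75.8 CPM, control calf 1789 on d 7 the next, 54.6 CPM, and weaned calf 1762 on d 2 the one after, 30.6 CPM. Calf 1762 ranked 1 of the libraries for GP5 but 30 for PPBP. Over the 48 libraries r of MRVI1 with the sum was 0.613 and rho 0.189, and without the 3 libraries r was 0.0678, so that the relation, examined after its values were seen, rests on them.

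Within d 0, 1, 2 and 7 r of MRVI1 with the marker sum was 0.0690, 0.705, 0.579 and 0.864, with permutation p of 0.826, 0.0715, 0.0789 and 0.00631, adjusted to 0.826, 0.104, 0.105 and 0.0144. Spearman's rho was -0.154, -0.0534, -0.105 and 0.401, with permutation p of 0.634, 0.869, 0.749 and 0.198, adjusted to 0.724, 0.869, 0.799 and 0.317. Without the 2 calves farthest from the median sum r was -0.495, -0.450, -0.407 and 0.396. No day held the relation by rank. Calves of both treatments were pooled here too.

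For the other 3 genes r with the sum over the 48 libraries was -0.0413 for ITGA2, -0.130 for PLA2G4A and 0.197 for PDE5A. With 3 markers, and genes near the floor, these values leave the part of platelets in their levels untested. Group means of the sum were 13.1 ± 3.47, 9.90 ± 2.04, 11.9 ± 3.39 and 22.2 ± 16.5 CPM in control calves on d 0, 1, 2 and 7, and 12.5 ± 4.42, 21.3 ± 26.9, 15.6 ± 7.99 and 10.4 ± 1.47 CPM in weaned calves (SD, n = 6 each). Weaned calves on d 7 had one of the lowest means of this sum. Their SELP mean of 7.85 CPM was the lowest of the 8 groups, while their GP5 mean of 0.706 CPM was above that of every control group.

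Markers of other cells were usable only in part. Erythroid markers (3 of 9, HBB most abundant) had an r of 0.428 with MRVI1 and -0.393 with PLA2G4A, and their sum was also highest in the libraries of calf 1769 on d 1 and calf 1789 on d 7. Eosinophil and basophil markers (3 of 9, IL5RA most abundant) had 0.482 with PLA2G4A and 0.433 with ITGA2. Endothelial markers (2 of 7, KDR most abundant) had 0.519 and 0.387, and 0.476 with PDE5A. Fibroblast and smooth muscle markers (6 of 10, COL1A1 most abundant) had -0.299 with PLA2G4A and -0.328 with ITGA2. The natural killer cell marker KLRD1 (1 of 6) and the monocyte marker MARCO (1 of 8) had 0.413 and -0.154 with PLA2G4A. No listed marker of neutrophils (0 of 10), T cells (0 of 10) or B cells (0 of 8) was used, so that these cells were not checked. Group means of some sums were not level over days either. Only genes the study itself had listed had symbols, the platelet markers among them. Movement of these sums over days is thus no independent evidence on cell composition. In weaned calves the eosinophil and basophil sum was 13.1 ± 4.67, 25.0 ± 11.1, 25.3 ± 30.6 and 19.2 ± 17.7 CPM on d 0, 1, 2 and 7, and in control calves KLRD1 was 6.94 ± 4.54, 5.50 ± 4.69, 4.61 ± 2.75 and 2.07 ± 0.751 CPM (SD, n = 6 each). In weaned calves on the same days the endothelial sum was 6.11 ± 2.15, 11.2 ± 7.79, 10.1 ± 7.01 and 13.2 ± 10.4 CPM, and that of fibroblasts and smooth muscle 148 ± 146, 79.7 ± 93.1, 15.4 ± 17.4 and 19.4 ± 23.9 CPM (SD, n = 6 each). Control calves had an eosinophil and basophil sum of 23.2 ± 19.5, 20.3 ± 13.2, 17.5 ± 15.2 and 17.6 ± 13.1 CPM. Their fibroblast and smooth muscle sum was 45.7 ± 49.2, 78.1 ± 79.9, 77.7 ± 88.4 and 85.8 ± 102 CPM. Their endothelial sum was 8.92 ± 3.35, 6.60 ± 1.45, 5.47 ± 3.10 and 6.81 ± 2.37 CPM (SD, n = 6 each). The part of cell composition in the results was not tested.

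The change over days was also compared between treatments, with calf as a block. For ITGA2 it was larger in weaned than in control calves by 2.08 (SE 0.81) on d 1, 2.12 (SE 0.96) on d 2 and 2.88 (SE 0.92) on d 7 on the log2 scale, with edgeR adjusted p of 0.200, 0.505 and 0.0812. For PLA2G4A it was larger by 1.32 (SE 0.44), 1.13 (SE 0.55) and 1.43 (SE 0.52), with edgeR adjusted p of 0.200, 0.505 and 0.0879. Libraries labelled calf 1758 carried part of these values. Without them ITGA2 had 1.65, 1.20 and 2.22 and PLA2G4A 1.29, 0.66 and 1.00. Without both 1758 and 1770 they were 1.27, 1.09 and 2.04 for ITGA2 and 1.27, 0.73 and 0.98 for PLA2G4A. With their d 7 libraries exchanged the d 7 values were 2.91 and 1.43, with edgeR adjusted p of 0.0950 and 0.0998. All signs were kept, and no alternative gave a call. On d 2 and d 7 the changes of PDE5A differed by 0.66 (SE 1.44) and 1.45 (SE 1.37), with edgeR adjusted p of 0.822 and 0.440, and those of MRVI1 by 0.75 (SE 0.92) and -1.24 (SE 1.00), with 0.676 and 0.363. With the d 7 libraries of 1758 and 1770 exchanged the d 7 values were 1.46 for PDE5A and -1.26 for MRVI1. Without both calves they were 1.75 and -1.73. With single calves left out they ran from 0.75 to 2.72 and from -1.64 to -0.29. On d 1 PDE5A and MRVI1 each had a group of 3 or fewer counts, and only the ratios above are given. No gene of the table was called in these 3 comparisons (0.0%), while 22.3%, 7.2% and 35.8% had an unadjusted p under 0.05. On d 7 the unadjusted p was 0.00556 for ITGA2 and 0.0129 for PLA2G4A, and 6.74% and 14.6% of genes had a p as low. The low d 0 values of weaned calves enter each of these differences.

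Few neighbouring groups were apart when the 8 groups were ordered by mean level. Of 28 pairs of neighbours over the 4 genes, 2 differed by more than both SDs. Neighbours in such an order are the closest groups, so that these steps do not describe groups farther apart. For ITGA2 the order from the highest ran weaned d 7, control d 0, weaned d 2, weaned d 1, control d 1, control d 2, control d 7 and weaned d 0, and only the last step, of 0.375 CPM, exceeded both SDs. For PLA2G4A weaned d 2, d 1 and d 7 came first, then control d 0, d 2 and d 1, weaned d 0 and control d 7, with no step beyond the SDs. For PDE5A the order was weaned d 7, weaned d 1, control d 7, weaned d 2, control d 0, control d 2, weaned d 0 and control d 1, again with none. For MRVI1 it was weaned d 2, control d 7, weaned d 1, control d 0, weaned d 0, control d 2, weaned d 7 and control d 1, where the step from control d 2 to weaned d 7 was 0.269 CPM.

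The surrounding pathways could be followed only in part. Symbols were at hand only for genes the study itself had listed, so that these genes are no independent evidence of a direction. Usable were 3 of 25 integrin subunits, 1 of 33 genes of collagen receptor signalling, 5 of 45 of eicosanoid synthesis and receptors, 4 of 40 of nitric oxide and cyclic GMP signalling and 3 of 36 of platelet agonist receptors and granule release. The only call in the 10 comparisons was TEC, a kinase downstream of antigen and collagen receptors, lower in control calves on d 7 than on d 0 with a log2 change of -1.07 (SE 0.29) and an edgeR adjusted p of 0.0285. In that comparison 3.73% of 13829 genes were called and 40.1% had an unadjusted p under 0.05. Without the d 7 library of calf 1759 no gene of the table was called there. Between treatments on d 7 TEC differed by 0.87 (SE 0.24), with an edgeR adjusted p of 0.158.

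Among the eicosanoid genes the lipoxygenases had the most counts. ALOX5, which makes leukotrienes from the arachidonic acid that PLA2G4A frees, averaged 122 CPM and ALOX15 211 CPM. Between treatments on d 7 their log2 differences were -1.51 (SE 0.34) and -1.21 (SE 0.26), each with an edgeR adjusted p of 0.158, where PLA2G4A had 0.98. Over the 10 comparisons the median log2 change of this list ran from -0.91, in that comparison, to 0.44, in control calves on d 7. In control calves ALOX5 had a d 7 change of 0.94 (SE 0.33), with an edgeR adjusted p of 0.0558. PTGS1, a cyclooxygenase of platelets, differed by -1.17 (SE 0.45) between treatments on d 2, with an edgeR adjusted p of 0.950. PTGDS, a prostaglandin D synthase, averaged 0.195 CPM. In weaned calves it held 13 counts on d 0, 3 on d 1 and 2 on d 7, ratios to d 0 of 0.214 with an exact 95% interval of 0.0391 to 0.779 and 0.155 with one of 0.0170 to 0.685. The edgeR adjusted p was 0.423 and 0.920.

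Of the platelet agonist list, THBS1, a granule protein that monocytes also make, averaged 114 CPM and P2RY12, a receptor for ADP, 19.8 CPM. In weaned calves their log2 changes on d 1 were 0.90 (SE 0.27) and 0.77 (SE 0.27), each with an edgeR adjusted p of 0.423, beside 1.69 for ITGA2 and 1.14 for PLA2G4A. Over the 10 comparisons the median log2 change of this list ran from -0.15, between treatments on d 0, to 0.90, in weaned calves on d 1. On d 2 the change of P2RY12 in weaned calves was 1.07 (SE 0.47), and THBS1 differed by 1.25 (SE 0.56) between treatments, with edgeR adjusted p of 0.944 and 0.950.

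Of the cyclic GMP genes, TRPC6, a cation channel, averaged 8.65 CPM and NOS2, the inducible nitric oxide synthase, 3.16 CPM. NOS2 had a log2 change of 1.86 (SE 0.67) in control calves on d 7, with an edgeR adjusted p of 0.0584. The phosphodiesterases PDE3A and PDE6C averaged 0.251 and 0.384 CPM and were as sparse as PDE5A, and PDE6C differed by -1.65 (SE 0.77) between treatments on d 0, with an edgeR adjusted p of 0.624. Of the integrins, ITGA9 averaged 10.0 CPM, and ITGA7 and ITGA11 averaged 0.253 and 0.0910 CPM.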

How the data were processed

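Total leukocyte RNA of 48 samples was sequenced. The authors aligned reads to Btau4.0 with Bowtie 0.12.7, without mismatches and keeping unique alignments, kept 1 read for each position, counted reads per Ensembl gene with HTSeq 0.4.6p2 and deposited the raw counts. Versions are from the submitters' processing notes, and whether strand was used in counting is not given in the sources used here. Keeping 1 read for a position compresses high levels more than low ones.

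Counts were tested with edgeR 4.0.16 in R 4.3.3 (TMM, quasi-likelihood F-test, at least 10 counts over the libraries compared, Benjamini-Hochberg adjustment over all genes tested). Treatments were compared on each day, and later days with d 0 in each treatment, without calf as a term, and interactions had calf as a block. Exact two-sided permutation tests used calf labels or signs of within-calf differences of log2(CPM + 1). Where a group held 1 to 3 counts, the ratio of summed counts has an exact conditional binomial interval. Pairs of libraries in a group (120 pairs) had a chi-square per degree of freedom of 2.43 to 46.2, where counting noise alone gives 1. Calf numbers pair the libraries across days, and 36 of 48 libraries deviated most like those of their own calf (median r 0.348).

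Symbols came from gene pairs in the study's supplementary tables (644 genes). Genes named from the lists were those called and up to 3 for each comparison with the smallest unadjusted p under 0.05, and for likeness the 3 with the highest r. Those given by level only were chosen after their values were seen. The platelet sum was made again from GP5, PPBP and SELP after its values were seen, and 1 further listed marker is not reported here. The members and lists were chosen with earlier results of these data known. Flowcells were taken from the study's lane list, reading the numbers beside calves as bleeding times in order. Alternatives were RLE factors, no filter or at least 60 counts, DESeq2 1.42.0, all 48 libraries in 1 fit with or without flowcell, calf as replicate block, exchanged libraries, each calf left out, calves 1758 and 1770 left out, CPM differences and a pseudocount of 0.5. The first component as covariate, fits without the d 2 and d 7 libraries of calf 1759 alternatives for count ratios, equal counts taken as no change, and interactions with calves 1758 and 1770 exchanged or left out were chosen after seeing the data. Procedures were tested on simulated data. For the edgeR fits the genes given a change held more counts than ITGA2, PDE5A and MRVI1. Recovery of changes at the counts of these genes was not tested. Python 3.11.15, numpy 2.4.6, pandas 2.3.3, scipy 1.17.1 and matplotlib 3.10.9 were used. Gene positions and sequences were not used here.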

Additional observations from a re-analysis of the deposited data

Results flagged for a closer look

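In 5 of 32 groups of 6 libraries, 1 library lay far from the others on the log2(CPM + 1) scale, with a gap to the nearest that took more of the group's range than Dixon's 95% limit. The limit assumes continuous values, so that for the sparse genes it serves only to list libraries. ITGA2 was at 0 counts in control calf 1755 on d 7, a gap of 0.655 of the range. PLA2G4A was lowest in control calf 1789 on d 7, at 4 counts, a gap of 0.656. PDE5A had its only control count of d 1 in calf 1759, which makes the gap the whole range by construction, and on d 7 it was highest in the same calf, at 3 counts, a gap of 0.782. MRVI1 was highest in weaned calf 1762 on d 2, at 16 counts, a gap of 0.729. These groups held few counts apart from PLA2G4A, and the causes were not tested.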

How the results depend on the processing

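Of 548 alternative log2 changes of the 4 genes, 514 kept their direction and their side of the threshold, 33 changed sign and 1 became a call. PLA2G4A in control calves on d 7 was called without calf 1802 (-1.19) and ran up to -0.79 with other single calves left out, so that 0 to 1 of the 4 genes was called there. The replicate block changed no call of the 4 genes. Over all genes, the number called between treatments on d 7 was 0, also with all 48 libraries in 1 fit, and adding flowcell to that fit moved it to 919, DESeq2 to 26 and the first component as covariate to 1. With flowcell added it also went from 0 to 1 on d 0 and 1 on d 2. In control calves on d 7 it went from 516 to 1 with all 48 libraries in 1 fit, which adding flowcell took to 0, and to 0 with the first component as covariate or without the d 7 library of calf 1759, while DESeq2 called 617. In weaned calves it went from 0 to 1 on d 1 and 1 on d 7 with DESeq2, and to 2 on d 1 with the replicate block. Causes of these changes were not tested.

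With the first component as covariate the sign turned for differences between treatments of MRVI1 on d 0 (0.022), ITGA2 on d 1 (-0.068), d 2 (-0.48) and d 7 (-0.018), PDE5A on d 2 (-0.18) and PLA2G4A on d 7 (-0.19), and for PLA2G4A in control calves on d 2 (0.40). The last was 0.14 with flowcell as a term and 0.0080 without the d 2 library of calf 1759. Without calves 1758 and 1770 the differences of MRVI1 on d 0 and ITGA2 on d 1 and d 2 were 0.014, -0.20 and -0.26.

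With single calves left out, differences between treatments ran from -0.19 to 0.12 for MRVI1 on d 0, -0.15 to 0.44 for ITGA2 on d 1, -0.48 to 0.66 for ITGA2 on d 2 and -0.53 to 1.44 for MRVI1 on d 2. Changes of MRVI1 from d 0 ran from -0.60 to 0.61 on d 1 and -0.54 to 1.32 on d 2 in weaned calves, and -0.37 to 0.023 on d 2 and -0.48 to 0.91 on d 7 in control calves. Those of PLA2G4A in control calves ran from -0.40 to 0.010 on d 1 and -0.38 to 0.053 on d 2. Of 184 alternative differences of changes 3 changed sign, and those of d 2 with single calves left out ran from -0.047 to 1.08 for PDE5A and -0.38 to 1.09 for MRVI1. Those of ITGA2 ran from 1.65 to 2.48, 1.20 to 2.58 and 2.22 to 3.35 on d 1, 2 and 7, and those of PLA2G4A from 1.00 to 1.60, 0.66 to 1.37 and 1.00 to 1.77. The differences of PLA2G4A between treatments ran from 0.12 to 1.03, 0.039 to 0.86 and 0.41 to 1.16 on d 1, 2 and 7.

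Of 108 alternative exact p values 104 stayed on their side of 0.05. In weaned calves on d 7 those of ITGA2, PDE5A and MRVI1 became 0.0625, 0.0625 and 0.0625 with equal counts taken as no change, and that of MRVI1 0.0938 with the libraries of 1758 and 1770 exchanged. PDE5A between treatments on d 7 had a ratio of summed counts of 10.7 without calf 1759 (1.63 to 452), where the edgeR adjusted p was 0.250. Depth limits PDE5A, MRVI1 and ITGA2, whose single libraries often held under 3 counts.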
